A study of Mus musculus with 4 samples.

Results

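The mouse genes examined here carry an Lrrc symbol, short for leucine-rich repeat containing, in RNA sequencing data of Rfx2 mutant and control testes. Of 63 symbols in the files made of Lrrc followed by a digit, 4 were left out by the rule (Lrrc6, Lrrc48, Lrrc50 and Lrrc52). The other 59 were kept when their FPKM (fragments per kilobase of transcript, scaled to the mapped fragments) reached 1 in 2 or more of the 4 samples. This left 38 Lrrc genes among 12985 genes that passed the same filter and 22311 listed symbols. The symbols follow a sequence feature of the proteins, so the genes need not share a function.

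The leucine-rich repeat is a short protein motif whose copies stack into a curved solenoid, and the concave face of that solenoid commonly binds other proteins. Proteins that hold the motif serve in very different places, among them the axoneme of cilia and sperm flagella, centrosomes, ion channels, actin regulators and adhesion molecules. RFX transcription factors bind a palindromic DNA element, the X-box, and are best known as regulators of genes for cilia. Spermatids assemble their flagellum after meiosis, so the testis transcribes many cilia genes.

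Total RNA came from whole testes of 24-day-old mice, with 2 mutant samples (mutant 1 and mutant 2) and 2 control samples (control 1 and control 2). The mutants are rfx2-/-, and by the study's methods the line derives from a single embryonic stem cell clone, in which a neomycin-resistance cassette took the place of the exons for the DNA-binding domain. The labels call the controls wild type and the strain DBA, whereas the methods describe heterozygous controls on a mixed background, so the controls may carry a mutant allele. The mutation was in every cell, and whole testis holds germ cells of all stages up to spermatids beside Sertoli, Leydig and other somatic cells.

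Rfx2 itself had an FPKM of 36.7 in mutant 1, 39.8 in mutant 2, 123 in control 1 and 89.4 in control 2. The mutant samples lay below both control samples (log2 fold change -1.43, SE 0.19, adjusted p = 0.00617 by limma with Benjamini-Hochberg adjustment over all genes tested), and the FPKM is given for the whole gene, with no value for the deleted exons. This call was lost with median-ratio scaling, with no filter and without control 1, where the adjusted p was 0.0546 to 0.0730. The confidence bounds in the files correspond to 17.2 to 20.3 M fragments per sample, and 12557 to 12942 genes reached an FPKM of 1. Pachytene spermatocyte markers summed to 3430.8 to 3931 FPKM over the 4 samples and Sertoli cell markers to 541 to 801, and none of the 18 genes tested in these lists was called by limma, with 1 lower by an unadjusted p under 0.05. In whole testis, fewer cells of a type and less RNA per cell cannot be told apart.

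Of the 38 Lrrc genes, 5 were lower in mutant testes, Lrrc23, Lrrc43, Lrrc67, Lrrc34 and Lrrc10b, and 0 were higher at an adjusted p under 0.05 (limma, two-sided). Over all genes tested, 2.52% were lower and 0.308% higher by the same rule, 2.83% in all. The FPKM in the mutant samples was 0.456% of the control mean for Lrrc23, 2.57% for Lrrc43, 10.5% for Lrrc67, 14.7% for Lrrc34 and 10.3% for Lrrc10b. Of these 5 genes, Lrrc23 and Lrrc10b reached the filter only through the control samples, so their membership already required a difference. The other 33 Lrrc genes had smaller differences, with log2 fold changes from -0.84 to 0.69, and 27 of them lay within 0.5 of 0 in either direction. By an unadjusted p under 0.05, 9 Lrrc genes were lower and 1 was higher, beside 6.68% and 2.01% of all genes tested.

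**Figure D1:**
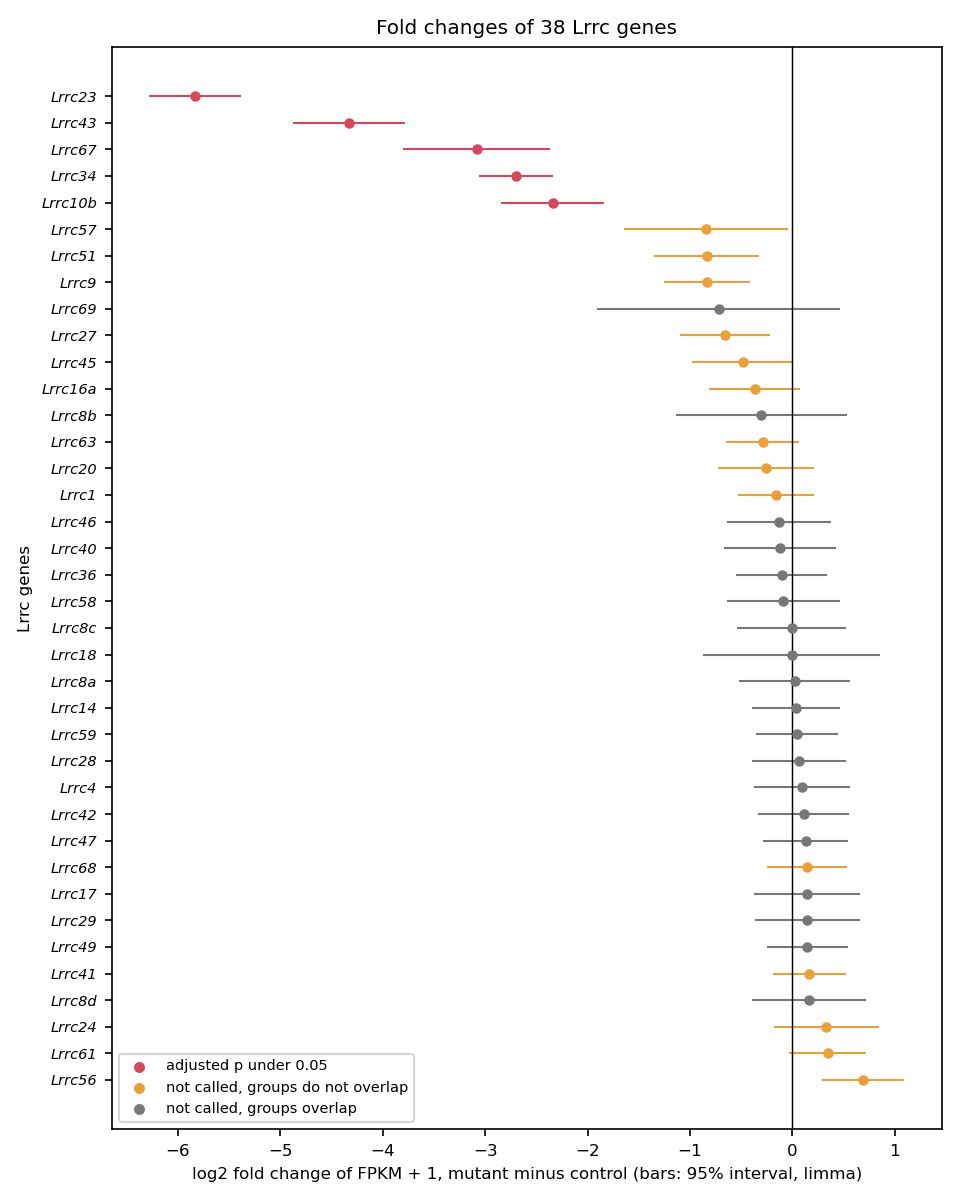
Log2 fold change of FPKM + 1 (x axis, mutant minus control) for each of the 38 Lrrc genes (y axis), with bars for the 95% interval from limma and colours for the call and for whether the 4 samples separate by genotype. The 5 called genes lie between -5.83 and -2.34, and the 33 others lie between -0.84 and 0.69.

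Lrrc23 encodes a protein of the radial spoke, the structure that links the outer doublet microtubules of the axoneme to its centre. Its gene is on chromosome 6 (mm9, chr6:124719881-124729745, minus strand) and is annotated with 8 exons. Lrrc67, listed in RefSeq as Ppp1r42 and named as a regulatory subunit of protein phosphatase 1, is on chromosome 1 (chr1:9958705-9999217, minus strand, 9 exons). Lrrc43 is on chromosome 5 (chr5:123939334-123958214, plus strand, 12 exons) and Lrrc34 on chromosome 3 (chr3:30523189-30546791, minus strand, 11 exons). Lrrc10b is a gene of 1 exon on chromosome 19 (chr19:10530579-10531937, minus strand).

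The standard X-box motif, searched on both strands without mismatch and with 0 to 3 bases between its half-sites, was found just upstream of 4 of these 5 genes. The 250 bases before the annotated start of each of the 4 are shown because they hold the motif. They were read from the mm9 genome on the strand of the gene, 5′ to 3′, and capitals mark the X-box. The windows are chr6:124729746-124729995 on the minus strand for Lrrc23, chr5:123939084-123939333 on the plus strand for Lrrc43, chr1:9999218-9999467 on the minus strand for Lrrc67 and chr19:10531938-10532187 on the minus strand for Lrrc10b. None of the 4 windows holds an annotated exon.
Lrrc23: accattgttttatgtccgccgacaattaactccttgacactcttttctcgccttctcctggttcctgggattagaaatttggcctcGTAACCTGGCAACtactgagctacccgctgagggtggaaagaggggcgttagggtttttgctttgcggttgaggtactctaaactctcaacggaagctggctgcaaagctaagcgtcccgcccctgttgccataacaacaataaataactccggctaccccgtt
Lrrc43: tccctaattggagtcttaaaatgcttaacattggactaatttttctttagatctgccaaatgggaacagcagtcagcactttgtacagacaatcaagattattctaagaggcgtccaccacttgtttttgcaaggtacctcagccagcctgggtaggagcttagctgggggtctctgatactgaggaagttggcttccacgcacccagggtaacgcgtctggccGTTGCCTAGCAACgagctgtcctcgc
Lrrc67: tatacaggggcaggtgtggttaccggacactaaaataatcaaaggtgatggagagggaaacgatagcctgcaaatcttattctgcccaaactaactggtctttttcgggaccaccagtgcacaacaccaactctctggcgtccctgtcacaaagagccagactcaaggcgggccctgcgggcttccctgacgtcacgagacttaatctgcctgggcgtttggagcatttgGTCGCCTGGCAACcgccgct
Lrrc10b: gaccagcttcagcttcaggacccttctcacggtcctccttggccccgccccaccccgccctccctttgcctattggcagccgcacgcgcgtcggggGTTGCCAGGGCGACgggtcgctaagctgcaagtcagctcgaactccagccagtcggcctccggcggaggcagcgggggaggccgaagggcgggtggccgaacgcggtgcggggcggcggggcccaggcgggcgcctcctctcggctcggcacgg

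Counted from the start site, with negative positions upstream, the X-box ran from -26 to -14 in Lrrc43, from -20 to -8 in Lrrc67, from -164 to -152 in Lrrc23 and, on the opposite strand, from -154 to -141 in Lrrc10b. The motif thus lay close to the start in a pair of these genes and farther upstream in the other two. No match lay within 1000 bases of the start of Lrrc34 or of any of the 33 Lrrc genes that were not called. Within 1000 bases of the start, 4 of 38 Lrrc genes (10.5%) and 588 of the 12728 tested genes with an annotated start (4.62%) had a match. Of these 4 Lrrc genes, Lrrc23 and Lrrc10b reached the filter only through the control samples, which limits the comparison of these shares. In the window from 250 bases upstream to 50 bases downstream the same 4 Lrrc genes had one, beside 1.98% of the tested genes. When every annotated start was searched, 5 Lrrc genes (13.2%) and 5.92% of the tested genes had a match, the added one being Lrrc8c. Outside the 38 genes, Lrrc38, Lrrc4b and Lrrc50 also had matches. Lrrc38 and Lrrc4b were under the filter and not tested. Lrrc50, left out by the rule, had its match from 42 to 55 and was not called (log2 fold change -0.42, adjusted p = 0.788 by limma). Lrrc48, also left out by the rule, had no match within 1000 bases and was lower (log2 fold change -0.76, adjusted p = 0.0454 by limma). These are matches of letters, and the files measure no binding. The study had itself scanned promoters for RFX-binding sites with a program of its own. It reports that all the testis-specific genes it verified were predicted targets, without naming them in its text. The study also examined some promoters separately, by PCR after precipitation of chromatin with an antibody against RFX2. Its primers for Lrrc67 span -48 to 75 around the start, a stretch that holds 1 X-box. It reports that most promoters it examined were precipitated, and its text does not give the result of each.

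**Figure D2:**
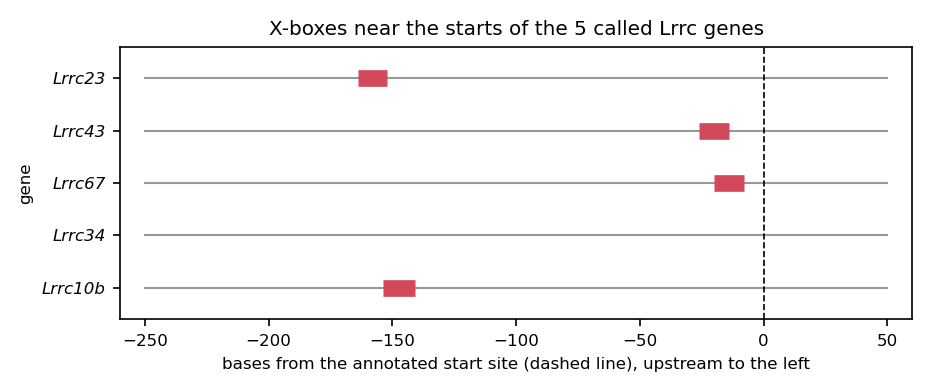
Position of the X-box (red blocks) relative to the annotated start site (dashed line) in bases along the x axis, for the 5 called Lrrc genes on the y axis. Lrrc43 and Lrrc67 have it within 26 bases of the start, Lrrc23 and Lrrc10b between 141 and 164 bases upstream, and Lrrc34 has none in the window from 250 bases upstream to 50 downstream.

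Lrrc23 had an FPKM of 0.288 in mutant 1, 0.398 in mutant 2, 75.4 in control 1 and 75.2 in control 2. Both mutant samples were near 0 and both control samples nearly equal, with means of 0.343 ± 0.0782 and 75.3 ± 0.181 (SD, n = 2 each). The mutant values rest on about 11 and 13 fragments as the confidence bounds give them, against 2753 and 2905 in the control samples. On the log2(FPKM + 1) scale the difference was -5.83 (95% interval -6.28 to -5.38, adjusted p = 1.58e-05), the lowest adjusted p among the Lrrc genes.

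Lrrc43 had an FPKM of 0.900 in mutant 1, 1.18 in mutant 2, 47.4 in control 1 and 33.6 in control 2. The mutant samples lay far below the control samples, which themselves differed by more than the mutant samples did (40.5 ± 9.78 in controls and 1.04 ± 0.199 in mutants, SD, n = 2 each). The log2 fold change was -4.33 (95% interval -4.88 to -3.78, adjusted p = 5.08e-05). About 50 and 56 fragments stand behind the mutant values.

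Lrrc67 had an FPKM of 2.69 in mutant 1, 6.47 in mutant 2, 43.4 in control 1 and 43.6 in control 2. The control samples were nearly equal, while mutant 2 was 2.40-fold above mutant 1, so the residual level of this gene differed between the mutant samples. The groups did not overlap, and the log2 fold change was -3.08 (95% interval -3.80 to -2.36, adjusted p = 0.00138). The study lists real-time PCR primers for Lrrc23 and Lrrc67. It reports lower mutant levels for the testis-specific genes it measured in this way, without naming them in its text. The values given here are from its RNA sequencing samples, not from those measurements.

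Lrrc34, which encodes a protein described in the nucleolus of pluripotent stem cells, kept the highest mutant level of the 5. Its FPKM was 19.2 in mutant 1, 18.1 in mutant 2, 131 in control 1 and 122 in control 2. The mutant samples were close to each other and below both control samples, with a log2 fold change of -2.70 (95% interval -3.06 to -2.34, adjusted p = 6.33e-05). In the annotation, Lrriq4, another gene with leucine-rich repeats, runs on the opposite strand (chr3:30543429-30571353), and 98 of the 1891 exon bases of Lrrc34 lie in exons of both. An annotated start of Lrriq4 lies 17 bases from that of Lrrc34. Lrriq4 had an FPKM of 1.88 in mutant 1, 2.79 in mutant 2, 18.2 in control 1 and 16.2 in control 2, and was also lower (log2 fold change -2.46, adjusted p = 0.000875). Fragments in the shared bases cannot be assigned to a gene where strand is not recorded, and whether the library kept strand is not given in the sources used here.

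Lrrc10b was the least abundant of the 5. Its FPKM was 0.796 in mutant 1, 0.954 in mutant 2, 9.30 in control 1 and 7.71 in control 2. All 4 samples separated by genotype, and the log2 fold change was -2.34 (95% interval -2.84 to -1.84, adjusted p = 0.000877). The pseudocount of 1 makes this value smaller than the ratio of the means, in which the control samples were 9.72-fold higher. Lrrc23 and Lrrc10b reached the filter only through the control samples, so their presence among the 38 genes already required a difference. All 5 genes were also called when no filter was applied.

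**Figure D3:**
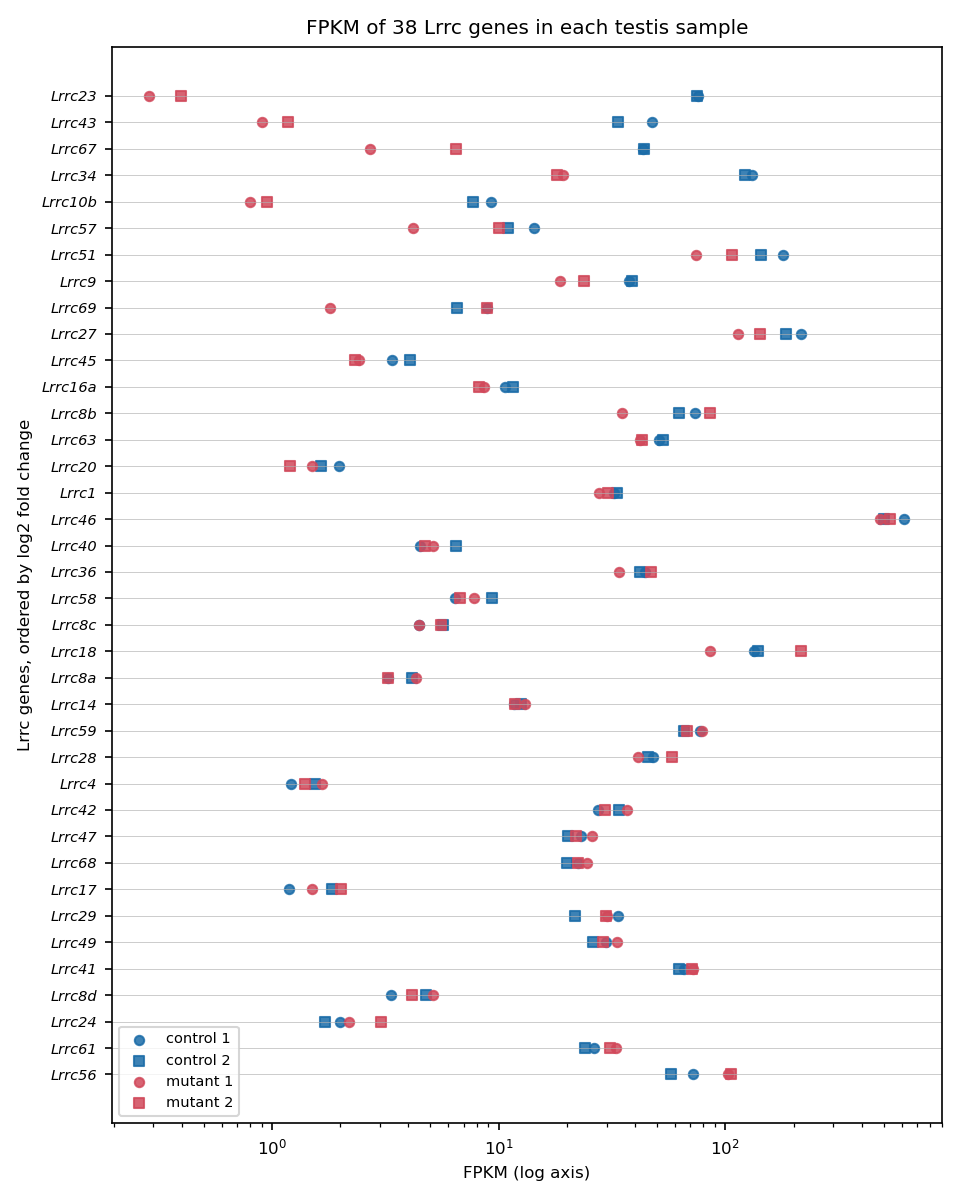
FPKM on a log axis (x) of each of the 38 Lrrc genes (y, ordered by log2 fold change) in each sample, with circles and squares for the first and second sample of each genotype. In the 5 uppermost genes the red mutant points lie far to the left of the blue control points, and in Lrrc56 at the bottom both mutant points lie to the right.

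The samples separated by genotype in 19 of the 38 Lrrc genes, 14 with both mutant samples below both control samples and 5 with both above. Over all genes tested the shares were 15.2% below and 16.3% above, or 31.5% together. Among the genes that separated but were not called, those lower by at least 0.5 on the log2 scale were Lrrc57, Lrrc51, Lrrc9 and Lrrc27. The one higher by as much was Lrrc56. Lrrc45, Lrrc16a, Lrrc63, Lrrc20 and Lrrc1 lay lower, by 0.49 to 0.16, and Lrrc68, Lrrc41, Lrrc24 and Lrrc61 higher, by 0.14 to 0.34. None of these 14 genes passed the adjusted threshold.

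Lrrc9 came nearest to the threshold. Its FPKM was 18.6 in mutant 1, 23.8 in mutant 2, 37.6 in control 1 and 38.9 in control 2. The genotypes did not overlap, the mutant mean being 55.4% of the control mean, with a log2 fold change of -0.83 (95% interval -1.25 to -0.42) and an adjusted p of 0.0615. It passed the threshold in some other fits of the same data, in which Lrrc51 did as well.

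Lrrc51 had an FPKM of 74.5 in mutant 1, 107 in mutant 2, 179 in control 1 and 144 in control 2. Mutant 1 was again the lowest and the groups did not overlap, and the log2 fold change was -0.84 (95% interval -1.35 to -0.33, adjusted p = 0.131). Lrrc27, the second most abundant Lrrc gene, had an FPKM of 114 in mutant 1, 142 in mutant 2, 216 in control 1 and 186 in control 2. Its groups did not overlap either, and its log2 fold change of -0.66 (95% interval -1.10 to -0.22) had an adjusted p of 0.189.

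Lrrc57 had an FPKM of 4.19 in mutant 1, 10.05 in mutant 2, 14.3 in control 1 and 11.1 in control 2. Mutant 2 lay just under control 2, so the difference came mainly from mutant 1 (log2 fold change -0.84, 95% interval -1.65 to -0.04, adjusted p = 0.518).

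Lrrc56, whose human counterpart is needed to assemble outer dynein arms in motile cilia, had the largest positive difference among the 38 genes. Its FPKM was 103 in mutant 1, 106 in mutant 2, 71.8 in control 1 and 57.9 in control 2. Both mutant samples lay above both control samples, at 162% of the control mean, with a log2 fold change of 0.69 (95% interval 0.29 to 1.09) and an adjusted p of 0.109. A neighbour on the opposite strand, 1600016N20Rik, shares 13 exon bases with it and had an FPKM of 10.3 in mutant 1, 7.94 in mutant 2, 45.7 in control 1 and 37.1 in control 2. That neighbour was lower (log2 fold change -2.07, adjusted p = 0.00115), so the 2 overlapping genes lay on opposite sides of 0. Hras1, which starts 152 bases away in the other direction, lay at 0.39 on the log2 scale (adjusted p = 0.611).

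**Figure D4:**
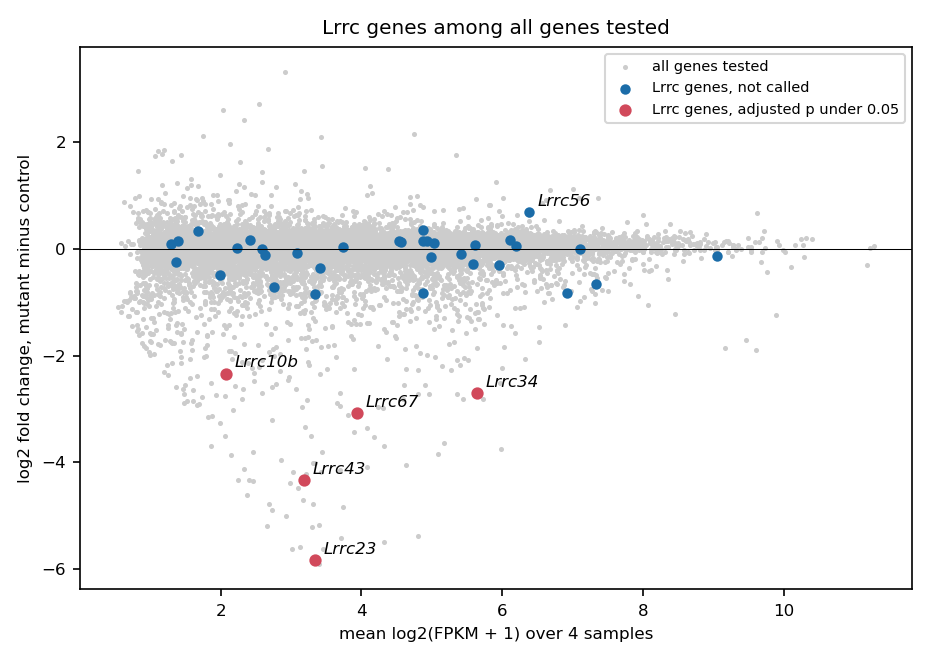
Log2 fold change (y axis, mutant minus control) against the mean of log2(FPKM + 1) over the 4 samples (x axis) for all 12985 genes tested (grey) and the 38 Lrrc genes (coloured). The 5 called Lrrc genes, in red, lie at or below -2.34, and the 33 others, in blue, lie between -0.84 and 0.69.

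The 38 genes spanned mean FPKM values from 1.45 (Lrrc4) to 533 (Lrrc46). The mean was at least 100 in 4 genes, from 10 to under 100 in 20 and under 10 in 14. The 5 with the highest means, Lrrc46, Lrrc27, Lrrc18, Lrrc51 and Lrrc56, held 56.8% of the summed FPKM of the 38, and none of them was called. Summed over the 38 genes, the FPKM was 1482 in mutant 1, 1794 in mutant 2, 2193 in control 1 and 1943 in control 2. The mutant sums lay below the control sums, and the 38 genes had a median fold change of -0.097 (log2), beside 0.032 for all genes tested. A negative value was found in 22 of the 38 genes and in 42.7% of all genes tested.

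Lrrc46, which mice need to build the sperm flagellum, was the most abundant of the 38 and was not called. Its FPKM was 484 in mutant 1, 531 in mutant 2, 616 in control 1 and 501 in control 2. The groups overlapped, because mutant 2 lay above control 2, and the log2 fold change was -0.13 with a 95% interval from -0.64 to 0.38. That interval stays within 1 of 0 on either side. Lrrc18 had an FPKM of 85.5 in mutant 1, 216 in mutant 2, 134 in control 1 and 139 in control 2. The mutant samples lay on opposite sides of the control samples, so its mean log2 fold change of -0.0058 had a wide 95% interval, from -0.87 to 0.86.

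Lrrc18 was 1 of 5 Lrrc genes in which mutant 2 was at least 2-fold above mutant 1, with Lrrc67, Lrrc57, Lrrc69 and Lrrc8b. The reverse was seen in 0 of the 38 genes, and a gap of 2-fold between the control samples also in 0. Among all genes tested, mutant 2 was at least 2-fold above mutant 1 in 6.05%. The gap was widest in Lrrc69, with an FPKM of 1.81 in mutant 1, 8.86 in mutant 2, 8.93 in control 1 and 6.58 in control 2, so that mutant 2 lay within the range of the control samples. Lrrc8b had an FPKM of 35.0 in mutant 1, 85.7 in mutant 2, 73.8 in control 1 and 62.8 in control 2, with mutant 2 the highest of the 4. Without mutant 2, Lrrc69, Lrrc57, Lrrc8b, Lrrc51, Lrrc9 and Lrrc27 had log2 fold changes from -1.63 (Lrrc69) to -0.82 (Lrrc27). With both mutant samples, the values of these genes ran from -0.84 (Lrrc57) to -0.31 (Lrrc8b). Taken against the control mean on the log2 scale, the median of the 38 genes was -0.17 in mutant 1 and -0.05 in mutant 2, beside 0.10 and -0.03 for all genes tested.

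Markers of late spermatids separated the mutant samples in the same direction. The 10 markers of elongating spermatids, which include the protamines and transition proteins, summed to an FPKM of 2139 in mutant 1, 7770 in mutant 2, 9078 in control 1 and 6318 in control 2. Their median log2 difference from the control mean was -1.26 in mutant 1 and 0.13 in mutant 2. The 10 round spermatid markers summed to an FPKM of 1212 in mutant 1, 1858 in mutant 2, 1588 in control 1 and 1452 in control 2, with medians of -0.47 and 0.27. By these sums, mutant 1 was lowest and mutant 2 stood within or above the control range in both lists. Single markers departed from this. Among round spermatid markers, mutant 1 exceeded control 2 in Acr, Spag6 and Tex101, and Tex101 was highest in mutant 1, at an FPKM of 370. In 2 elongating spermatid markers, Prm1 and Tnp1, mutant 2 was also under the control range. Its FPKM was 1195 for Prm1 and 999 for Tnp1, against 1266 and 1015 in control 2, the lower control. None of these 20 markers was at 0 in all samples, and none was called between genotypes by limma, also by an unadjusted p under 0.05. Their part in the Lrrc values was not tested. In Lrrc23, Lrrc43, Lrrc34 and Lrrc10b the mutant samples were within 1.38-fold of each other.

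**Figure D5:**
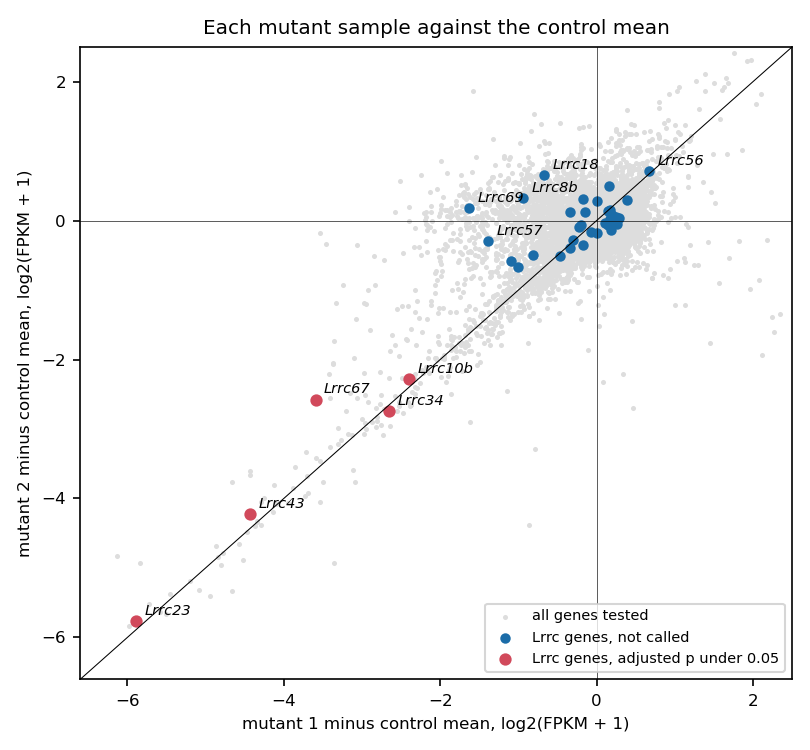
Difference from the control mean of log2(FPKM + 1) in mutant 1 (x axis) and mutant 2 (y axis) for all genes tested (grey) and the 38 Lrrc genes (coloured), with the line of equal values. The 5 called Lrrc genes lie at or below -2.28 in both mutant samples, while Lrrc69, Lrrc8b and Lrrc18 are below 0 in mutant 1 and above 0 in mutant 2.

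Several Lrrc genes have other known roles, and none of those described next was called. Lrrc8a, Lrrc8b, Lrrc8c and Lrrc8d encode subunits of the volume-regulated anion channel, of which LRRC8A is the obligatory one. Lrrc8b was the most abundant of these, with a mean FPKM of 64.3, and the others had means of 3.74 (Lrrc8a), 5.05 (Lrrc8c) and 4.36 (Lrrc8d). Their log2 fold changes were 0.02 for Lrrc8a, -0.31 for Lrrc8b, -0.01 for Lrrc8c and 0.17 for Lrrc8d, and the groups overlapped in each. The widest 95% interval was that of Lrrc8b, from -1.14 to 0.53.

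Lrrc49 encodes a subunit of the complex that adds glutamate chains to tubulin. Its FPKM was 33.3 in mutant 1, 29.0 in mutant 2, 29.9 in control 1 and 26.2 in control 2, with overlapping groups and a log2 fold change of 0.15 (95% interval -0.25 to 0.54). Of its 4 listed complex partners, 2 were tested and both changed, in opposite directions. Ttll1, the catalytic subunit, was lower, with an FPKM of 5.55 in mutant 1, 4.09 in mutant 2, 16.3 in control 1 and 13.0 in control 2 (log2 fold change -1.43, adjusted p = 0.0146). Nicn1, another subunit, was higher, with an FPKM of 39.3 in mutant 1, 34.6 in mutant 2, 20.8 in control 1 and 19.9 in control 2 (log2 fold change 0.83, adjusted p = 0.0424). Whether Lrrc49 differed from its partners was not tested.

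Lrrc45, a component of the linker between centrosomes, had an FPKM of 2.42 in mutant 1, 2.32 in mutant 2, 3.39 in control 1 and 4.07 in control 2, and did not pass the test (log2 fold change -0.49, adjusted p = 0.586). Lrrc16a, listed in RefSeq as Carmil1, encodes a regulator of the actin capping protein and lay at -0.37 on the log2 scale (adjusted p = 0.804). Lrrc1, a scaffold of cell polarity, lay at -0.16. Lrrc41, a substrate receptor of a cullin ubiquitin ligase, lay at 0.16, and Lrrc59, a protein of the endoplasmic reticulum membrane, at 0.05. Lrrc68, listed as Ppp1r37 and, like Lrrc67, a regulatory subunit of protein phosphatase 1, lay at 0.14, with a 95% interval from -0.25 to 0.53. Of the named phosphatase subunits, Lrrc67 was called lower and Lrrc68 was not called, and the difference between them was not tested.

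Most of the remaining Lrrc genes had log2 fold changes near 0, with 95% intervals that reached to both sides of it, such as -0.67 to 0.43 for Lrrc40. Lrrc40, Lrrc36, Lrrc58, Lrrc14, Lrrc28, Lrrc4, Lrrc42, Lrrc47, Lrrc17 and Lrrc29 had overlapping groups and log2 fold changes from -0.12 (Lrrc40) to 0.15 (Lrrc29). Lrrc63 and Lrrc20 lay lower in both mutant samples, at -0.29 and -0.26, and Lrrc24 and Lrrc61 higher, at 0.33 and 0.34, without passing the test. Lrrc14 and Lrrc24 share 1031 exon bases on opposite strands, so the fragments of these genes may be partly shared. Of the 33 Lrrc genes that were not called, 26 had a 95% interval within 1 of 0 on the log2(FPKM + 1) scale.

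Other radial spoke genes were set beside Lrrc23. Of the 10 that were tested, 2 were lower and 0 higher (3 and 0 by an unadjusted p under 0.05 in limma). Over all genes tested, 2.52% were lower and 0.308% higher (6.68% and 2.01% by the unadjusted p). The median log2 fold change of the 10 was -0.11, beside 0.03 for all genes tested. The study names the 2 lower ones, Rsph9 and Iqub, among cilia and flagella genes, most of which it reports as lower. Rsph9, a spoke head protein, had an FPKM of 0.940 in mutant 1, 1.05 in mutant 2, 96.8 in control 1 and 72.9 in control 2 (log2 fold change -5.41, adjusted p = 2.14e-05). Iqub, a protein with a ubiquitin-like domain, had an FPKM of 0.818 in mutant 1, 0.812 in mutant 2, 41.5 in control 1 and 37.3 in control 2 (log2 fold change -4.47, adjusted p = 2.61e-05). Iqub, like Lrrc23, reached the filter only through the control samples. The other 8, among them Rsph1 and Ropn1l, were not called.

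Genes with leucine-rich repeats but without an Lrrc number were taken as a second group. Of 44 listed, 40 were in the files and 21 passed the filter. Lrriq4, next to Lrrc34, was the one called lower, 0 were called higher (1 in each direction by an unadjusted p under 0.05 in limma), and the median log2 fold change was 0.02. Lrguk and Lrwd1 were among those not called.

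The filter left out 21 Lrrc genes. Of these, 19 were under an FPKM of 1 in every sample, and Lrrc25 and Lrrc66 reached it in 1 sample each. Lrrc19 was listed at 0 in all 4 samples. Just under the filter, Lrrc66 had an FPKM of 0.953 in mutant 1, 1.71 in mutant 2, 0.504 in control 1 and 0.589 in control 2. Just inside it, Lrrc4 had 1.66, 1.40, 1.21 and 1.54 in the same order. Lrrc55 was below the filter and so was not tested, with an FPKM of 0.0123 in mutant 1, 0.0144 in mutant 2, 0.631 in control 1 and 0.449 in control 2. The bounds correspond to about 1 fragment in each mutant sample, and to 49 and 37 in the control samples. Lrrc55 was singled out after its values were seen.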

How the data were processed

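Whole testes of 24-day-old mice were measured by RNA sequencing, with 2 mutant and 2 control samples, grouped by the titles in the labels. TopHat 2.0.6 was used by the authors for alignment to mm9, and the deposited tables hold the Cufflinks FPKM of each gene with its confidence bounds. FPKM corrects for gene length and for depth within a sample. Sequencing depth was estimated from the width of these bounds, so fragment numbers are estimates: below 30 fragments, 77.8% to 78.9% of them came out whole within 0.05. Numbers under about 30 carry a large counting error.

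FPKM of entries sharing a symbol were summed, genes with at least 1 FPKM in at least 2 samples were kept, and log2(FPKM + 1) was compared in R 4.3.3 with limma 3.58.1 (lmFit, then eBayes with its trend option). Tests were two-sided, and p-values were adjusted by Benjamini-Hochberg over 12985 genes, with a threshold of 0.05. Fold changes are on the log2(FPKM + 1) scale and understate those of low genes. The fit was first tested on simulated data. With 2 samples per genotype, each gene has 2 residual degrees of freedom of its own, and the p-values measure only the spread between these samples. FPKM are not counts, so no count test was made, and the study's Cuffdiff test was not repeated.

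Sample values were written out for each called Lrrc gene, for those whose genotypes separated with a log2 fold change of at least 0.5 in size, and for the 5 most abundant. Sample values of Lrrc69, Lrrc8b, Lrrc49, Lrrc45, Lrrc4, Lrrc66 and Lrrc55 were added after they had been seen. The other Lrrc genes are given by counts, ranges or single values. The Lrrc genes and the gene lists were chosen with earlier results of these data known. The lists are radial spoke genes, partners of Lrrc49, other genes with leucine-rich repeats, and markers of round and elongating spermatids, pachytene spermatocytes, spermatogonia, Sertoli, Leydig, macrophage and blood, and peritubular and vessel cells.

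Positions, exons and starts are from GENCODE vM1 on NCBIM37, the assembly of mm9, and all 63 Lrrc symbols were found there. The most upstream start of a protein-coding transcript was used for the X-box search. RefSeq symbols are from its table of mouse genes. Alternatives changed the pseudocount, the filter, the scaling, the handling of shared symbols, the eBayes settings, the replicate block and the samples used. Python 3.11.15, numpy 2.4.6, pandas 2.3.3 and matplotlib 3.10.9 made the tables and plots.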

Additional observations from a re-analysis of the deposited data

How the results depend on the processing

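Across 13 other settings, 16 of the 38 Lrrc genes kept both their direction and their side of the threshold in each, as did 451 of 487 values. Another 12 values, in 7 genes, newly passed the threshold, and 0 lost a call. The sign changed in 24 values of 17 genes, all when 1 sample was left out and with 0 of them called. Over these fits the log2 fold change ran from -0.040 to 0.11 in Lrrc14, -0.044 to 0.33 in Lrrc17, -0.67 to 0.66 in Lrrc18, -0.18 to 0.31 in Lrrc28, -0.16 to 0.45 in Lrrc29, -0.33 to 0.12 in Lrrc36, -0.0092 to 0.19 in Lrrc4, -0.34 to 0.11 in Lrrc40, -0.045 to 0.26 in Lrrc42, -0.28 to 0.016 in Lrrc46, -0.33 to 0.15 in Lrrc58, -0.071 to 0.16 in Lrrc59, -1.63 to 0.18 in Lrrc69, -0.14 to 0.18 in Lrrc8a, -0.94 to 0.33 in Lrrc8b, -0.16 to 0.14 in Lrrc8c and -0.039 to 0.37 in Lrrc8d. Lrrc23, Lrrc43, Lrrc67, Lrrc34 and Lrrc10b were called in all 13. Among all genes, 327 were lower and 40 higher. With a filter at an FPKM of 5 these were 202 and 17, with median-ratio scaling 216 and 16, and with no filter 212 and 20. Robust eBayes gave 427 lower and 67 higher. Leaving out 1 sample at a time gave 167 to 948 lower and 13 to 162 higher, in fits with 1 residual degree of freedom that assume the lone sample varies like the other group. For the Lrrc genes these fits gave 5 to 11 lower, with 11 without mutant 2, and a median from -0.17 to -0.05. Robust eBayes called 7 Lrrc genes lower, adding Lrrc9 and Lrrc51, and 1 higher, Lrrc56. Rfx2 lost its call with median-ratio scaling (-1.45, adjusted p = 0.0730), with no filter (-1.43, adjusted p = 0.0546) and without control 1 (-1.20, adjusted p = 0.0628), and ranged from -1.66 to -1.20 when 1 sample was left out. The cause of these shifts was not tested, apart from the fewer genes or samples that some settings use.

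The replicate block from the labels gave 525 genes lower and 70 higher, and among the Lrrc genes 7 lower (Lrrc9 and Lrrc51 added) and 1 higher (Lrrc56). A fit with a block also leaves 1 residual degree of freedom per gene, so the added calls rest on little spread of their own. Same-numbered samples did not deviate together over all genes tested (correlation -0.154), so the numbers are not shown to pair the samples. Summed markers of some cell types, given below, did follow the numbers. With the pairing crossed, a setting chosen after seeing the data, 266 genes were lower and 28 higher, and 5 and 0 Lrrc genes. Depth limits the lowest values, such as the mutant values of Lrrc23.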

Other observations

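Markers of the other cells of the testis were read from the same fit. None of the 10 pachytene spermatocyte markers, 8 spermatogonia markers, 8 Sertoli cell markers, 6 Leydig cell markers, 6 macrophage and blood cell markers and 5 peritubular and vessel cell markers that were tested was called in either direction by limma. By an unadjusted p under 0.05, 1 of them was lower, the pachytene marker Pgk2, and 0 were higher. The median log2 fold changes were 0.06 for pachytene spermatocytes, 0.08 for spermatogonia, 0.14 for Sertoli cells, 0.29 for Leydig cells, -0.25 for macrophages and blood cells and 0.01 for peritubular and vessel cells, beside 0.03 for all genes tested. Leydig cell markers varied within genotype, with summed FPKM of 425 in mutant 1, 237 in mutant 2, 375 in control 1 and 136 in control 2. Macrophage and blood cell markers summed to 36.0, 120, 42.8 and 150 in the same order. From the first to the second sample, each of these sums changed in the same direction in both genotypes, as did that of pachytene markers. The sums of spermatogonia, Sertoli cell, peritubular and vessel cell, and spermatid markers changed in opposite directions. A shared origin of same-numbered samples was not tested.

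Of the 38 Lrrc genes, 13 have a protein-coding neighbour on the opposite strand whose most upstream start lies within 1000 bases of their own. Most of these pairs point away from each other without overlap, but Haus2 overlaps Lrrc57 by 138 bases and Stk32c overlaps Lrrc27 by 320. Of these neighbours 11 were tested and 0 were called by limma, also by an unadjusted p under 0.05, with log2 fold changes from -0.10 (Tmem208, beside Lrrc29) to 0.39 (Hras1, beside Lrrc56). Mrpl10, a mitochondrial ribosomal protein gene whose start lies 153 bases from that of Lrrc46, had a log2 fold change of 0.01. None of the 5 called Lrrc genes was among the 13 by this measure, although another annotated start of Lrriq4 lies 17 bases from that of Lrrc34.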
